A study of Mus musculus with 20 samples.

Results

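The fibrinogen, coagulation and plasminogen activator genes described here are 9 of the 55822 genes in the deposited table: Fga, Fgb, Fgg, Plau, Plaur, Plat, Plg, F3 and Thbd. They were taken by gene symbol, for their function in clot formation and clot removal, with earlier results of these data known. Poly(A) RNA of whole kidney was sequenced from male C57BL/6J mice, 8 weeks old, that were dosed on 6 consecutive days and killed on day 7. The control group received phosphate-buffered saline (PBS) and the treated group received puberulic acid, a tropolone made by some Penicillium moulds, at 1 mg per day, with 5 samples in each group. Samples are called animals below, although the labels only number them and do not say that each is a separate animal. The labels describe 2 further groups of 5, given a normal or a toxic lot of the supplement Choleste-Help at 1000 mg per day, which are not analysed here. The series text calls the dosing oral, while the protocol allows oral gavage or intraperitoneal dosing, and the labels do not say which animal had which.

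Fibrinogen is a plasma protein built from the alpha, beta and gamma chains encoded by Fga, Fgb and Fgg, and thrombin cuts it to fibrin, the mesh of a clot. The liver is its main source, and its genes are acute-phase genes that respond to interleukin 6 through STAT3. Tissue factor, encoded by F3, starts coagulation on exposed cell surfaces, and thrombomodulin, encoded by Thbd, binds thrombin and turns it towards activating the anticoagulant protein C. Plasmin dissolves fibrin. It is cut from plasminogen (Plg) by urokinase (Plau) or by tissue plasminogen activator (Plat), and Plaur encodes the cell-surface receptor that holds urokinase. Urokinase is a known product of renal tubules.

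Among protein-coding genes the 3 fibrinogen genes are neighbours, in the order Fgg, Fga and Fgb, between Lrat and Plrg1 in RefSeq's annotation of GRCm38.p6. The 250 bases before the start of transcription are shown for the 5 members that have an entry in RefSeq's promoter table for that build. All 5 were called higher, as were Plat and Thbd, which have no entry there. In the fibrinogen genes, capitals mark CTGGGA, the core of the type II interleukin-6 response element, and GTTAAT, part of the binding site of the liver and proximal tubule factor HNF1. In F3 and Plaur, capitals mark TGANTCA, the AP-1 site. Both strands were searched, and the marked motifs do not overlap in these windows.
Fgg, chr3:83007474-83007723, plus strand: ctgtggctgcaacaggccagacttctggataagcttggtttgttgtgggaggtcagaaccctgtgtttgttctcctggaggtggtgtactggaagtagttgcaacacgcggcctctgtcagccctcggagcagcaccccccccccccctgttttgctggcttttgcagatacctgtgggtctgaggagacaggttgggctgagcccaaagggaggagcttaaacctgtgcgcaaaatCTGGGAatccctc
Fga, chr3:83025903-83026152, plus strand: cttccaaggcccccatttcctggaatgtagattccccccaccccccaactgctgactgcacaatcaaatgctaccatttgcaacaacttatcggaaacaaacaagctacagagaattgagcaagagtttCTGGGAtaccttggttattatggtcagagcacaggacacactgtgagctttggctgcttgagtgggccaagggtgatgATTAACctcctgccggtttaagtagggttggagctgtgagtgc
Fgb, chr3:83049864-83050113, minus strand: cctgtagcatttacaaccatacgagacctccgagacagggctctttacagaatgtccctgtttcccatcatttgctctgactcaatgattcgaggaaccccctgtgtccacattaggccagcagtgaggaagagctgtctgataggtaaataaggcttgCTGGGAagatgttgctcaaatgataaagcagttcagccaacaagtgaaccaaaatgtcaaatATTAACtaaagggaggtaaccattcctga
F3, chr3:121723287-121723536, plus strand: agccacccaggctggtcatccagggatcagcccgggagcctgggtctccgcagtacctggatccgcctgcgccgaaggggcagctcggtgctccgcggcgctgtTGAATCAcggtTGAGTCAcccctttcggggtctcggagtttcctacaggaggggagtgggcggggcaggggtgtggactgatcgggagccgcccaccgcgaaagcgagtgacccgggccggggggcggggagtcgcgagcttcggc
Plaur, chr7:24462233-24462482, plus strand: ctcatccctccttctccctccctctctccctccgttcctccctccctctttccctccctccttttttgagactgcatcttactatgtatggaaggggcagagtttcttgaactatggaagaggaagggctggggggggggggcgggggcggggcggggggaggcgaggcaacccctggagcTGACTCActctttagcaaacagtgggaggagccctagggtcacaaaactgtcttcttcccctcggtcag

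CTGGGA occurred 1 time in each of the 3 fibrinogen windows, and 27.0% of the 32536 distinct promoter windows of the same length held it. In Fgg it covered bases 13 to 8 before the start, in Fga bases 121 to 116 and in Fgb bases 91 to 86. GTTAAT, read on the opposite strand, was found in Fga and Fgb and in 6.47% of all windows. TGANTCA was found 2 times in F3, 1 time in Plaur and 1 time in Fgb, against 6.73% of all windows with a match. The STAT site TTCNNNGAA was found in Fga and Fgb and in 7.04% of all windows. The C/EBP letters TTGCNNAA were found in Fga, Fgb and Plaur and in 9.57% of all windows, and TATAAA was found in none of the 5 and in 12.3% of all windows. These matches are letters in a sequence, and binding was not measured.

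Of the 9 genes, 7 rose with puberulic acid and none was called lower. Levels are in CPM, which are counts scaled to a common library size by the trimmed mean of M-values (TMM), and a gene was called at an adjusted p under 0.05 in edgeR's quasi-likelihood test over all genes tested. The response of the whole kidney was broad: 65.3% of the 16266 genes tested were called, 34.2% higher and 31.1% lower, and the share of calls that were higher was 52.4%, or 78.4% when libraries were scaled to total counts. The 7 genes that rose were Fga, Fgb, Fgg, Plaur, Plat, F3 and Thbd. In each of the 7, all 5 treated animals lay above all 5 controls, as did 26.1% of all genes tested. Of the 7, 5 rose at least 8-fold and 3 at least 16-fold, sizes reached by 4.84% and 2.86% of all genes tested. Plau was not called, and Plg had too few counts to pass the filter on low values, so that 8 of the 9 genes were tested. The count of 0 lower members is 0 also at an unadjusted p under 0.05 and in DESeq2. All 8 genes tested had log2 changes above 0 in both fits, so neither could add a lower call. Plg, whose mean level fell, was in neither fit. With no filter on low counts, edgeR called Plg lower (log2 change -1.92, adjusted p = 0.00294). In bulk tissue, a change in the number of cells of a type and a change in RNA per cell cannot be told apart.

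**Figure D1:**
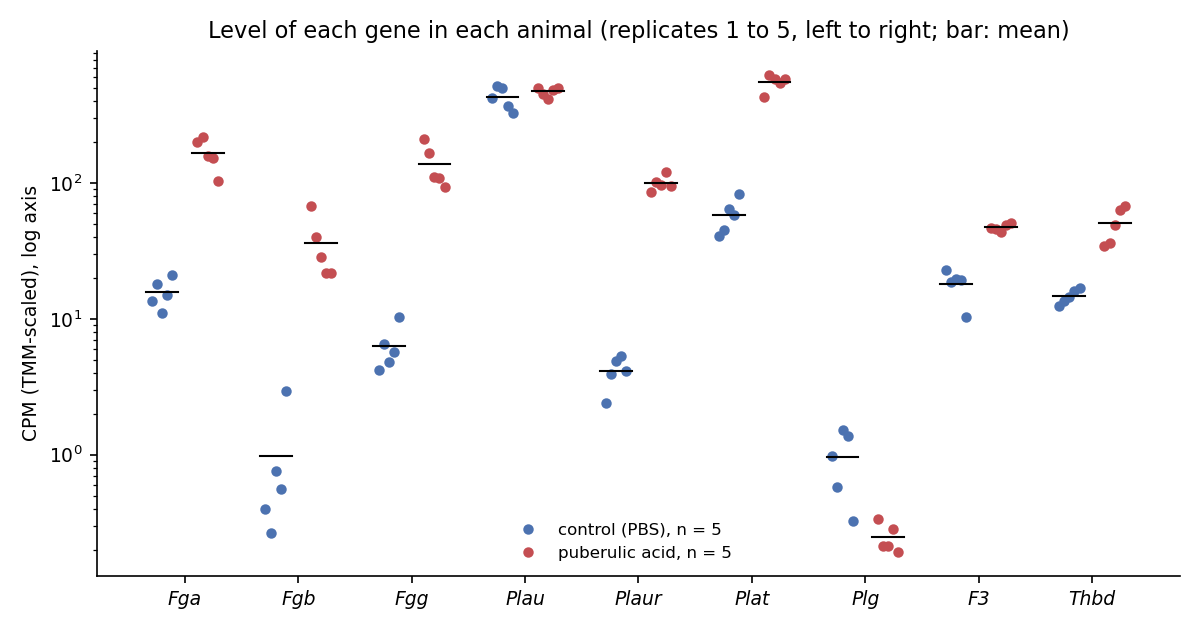
CPM of the 9 genes in each animal on a log axis, controls in blue and puberulic acid in red, with 5 points and a mean bar per group. The groups are separate for every gene except Plau and Plg.

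The fibrinogen genes rose by 10.6-fold to 36.6-fold in mean level. Fga was at 13.5, 18.1, 11.01, 15.1 and 21.0 CPM in control replicates 1 to 5 and at 200.8, 216.8, 157.8, 151.8 and 103.2 CPM in puberulic acid replicates 1 to 5. The lowest treated animal was well above the highest control. The means were 15.7 ± 3.89 and 166.1 ± 44.7 CPM (SD, n = 5 per group), a log2 change of 3.40 ± 0.23 (SE, adjusted p = 1.80e-07).

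Fgg, the gamma chain gene, was at 4.22, 6.54, 4.77, 5.73 and 10.4 CPM in the controls and at 212.0, 165.0, 110.0, 108.9 and 93.9 CPM with puberulic acid. Its mean went from 6.33 ± 2.44 to 137.9 ± 49.5 CPM (SD, n = 5 per group), a log2 change of 4.45 ± 0.30 (SE, adjusted p = 2.10e-07). As for Fga, control replicate 5 was the highest control.

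Fgb, the beta chain gene, was nearly silent in the controls, at 0.399, 0.264, 0.764, 0.561 and 2.92 CPM, or 5 to 45 counts per library. It was at 67.8, 39.9, 28.7, 21.8 and 21.8 CPM with puberulic acid. The log2 fold change was 5.23 ± 0.58 (SE, adjusted p = 8.25e-06). Control replicate 5 held most of the control signal, and without it the log2 change of Fgb was 6.18 (adjusted p = 1.89e-06). Puberulic acid replicate 1 was the highest treated animal for both Fgb and Fgg and had the second highest Fga.

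The chains did not rise in equal measure. Levels can be compared between genes only per length, here as CPM per kb of annotated exon in GENCODE M21. On that scale Fga made up 62.2% ± 5.11 of the fibrinogen RNA in the controls and 42.8% ± 4.63 with puberulic acid (SD, n = 5 per group). The Fgg share was 35.1% ± 3.27 in controls and 50.2% ± 3.32 after the compound, and for both genes treated and control animals were apart. The Fgb share was 2.70% ± 2.07 and 6.95% ± 1.58 (SD, n = 5 per group), spanning 0.752% to 6.04% among controls and 5.29% to 9.58% among treated animals. Fgb thus stayed the scarcest chain transcript in each of the 10 animals. These shares are a description, with no test of the difference.

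**Figure D2:**
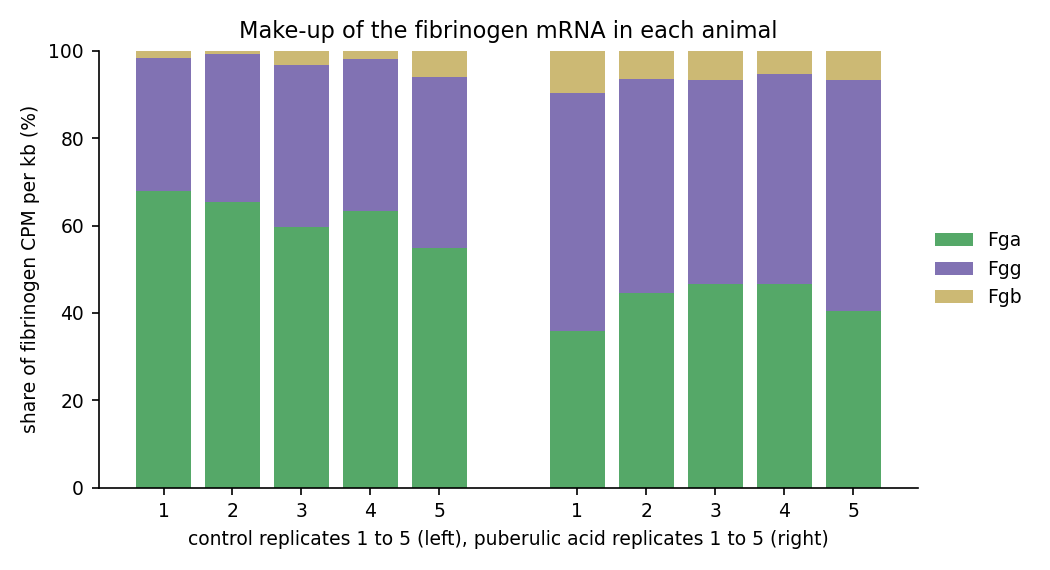
Stacked bars of the share (%) of Fga, Fgg and Fgb in the summed CPM per kb of the 3 genes, 1 bar per animal. The Fga share spans 54.9% to 67.9% among controls and 35.9% to 46.6% among treated animals.

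Levels of liver genes were examined beside fibrinogen because hepatocytes are its usual source. The summed level of 10 hepatocyte markers was 27.6 to 37.7 CPM among controls and 27.7 to 40.8 CPM among treated animals, while the fibrinogen sum was 16.5 to 34.3 and 218.8 to 480.5 CPM. Alb, the albumin gene, averaged 5.30 ± 1.04 CPM in the control group and 3.52 ± 0.94 CPM in the treated group (SD, n = 5 per group), and was called lower (adjusted p = 0.0344). Of the 10 markers, 3 were called higher (Apoc3, Ambp and Itih3), 3 lower (Alb, Apoa2 and Apoh), 1 was not called and 3 were not tested. Ahsg and Cps1 had at most 10 and 4 counts in any library.

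**Figure D3:**
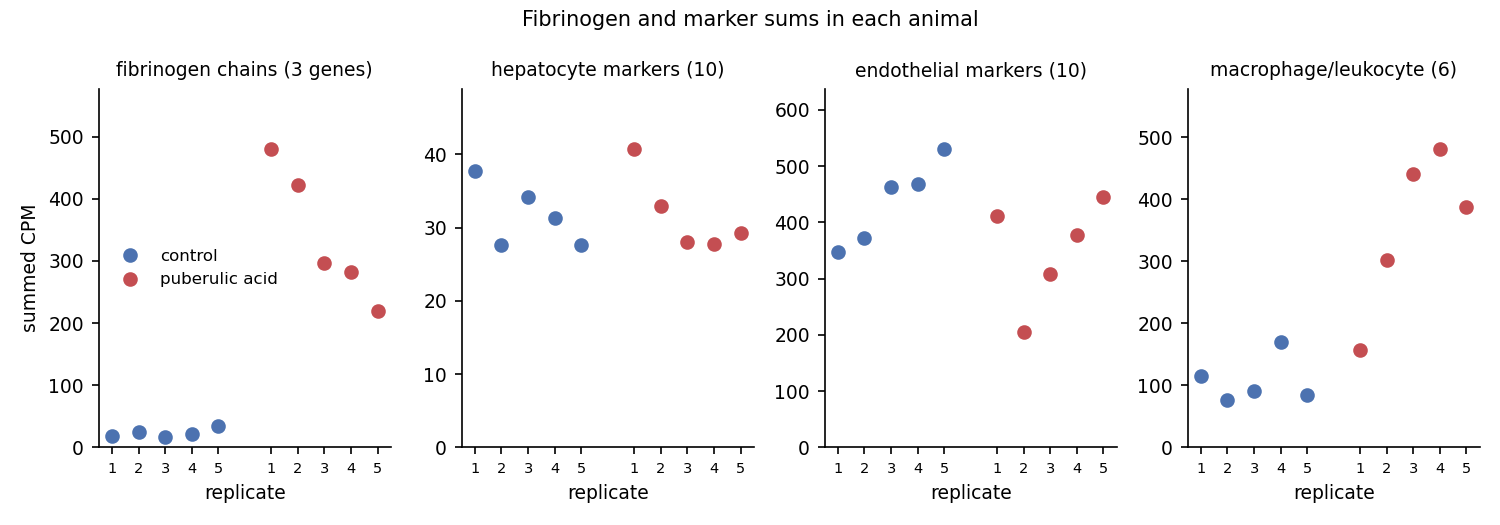
Summed CPM per animal of the 3 fibrinogen genes and of the hepatocyte, endothelial, and macrophage and leukocyte marker lists, controls in blue and puberulic acid in red, each panel on its own axis from 0. The groups are apart for fibrinogen and overlap for the hepatocyte, endothelial, and macrophage and leukocyte markers.

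Among the plasminogen activators, Plat rose and Plau, the most abundant of the 9 transcripts per length in both groups, was not called. Plat was at 41.0, 44.8, 64.7, 58.2 and 83.3 CPM in the controls and at 430.4, 627.3, 582.8, 547.4 and 583.7 CPM with puberulic acid. Replicate 1 was the lowest treated animal, yet far above every control. The mean rose 9.49-fold, with a log2 change of 3.25 ± 0.20 (SE, adjusted p = 8.77e-08).

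Plau was at 421.8, 517.2, 499.0, 370.6 and 328.2 CPM in the controls and at 500.9, 452.3, 417.4, 486.3 and 501.3 CPM with puberulic acid. The groups overlapped, with means of 427.4 ± 81.1 and 471.6 ± 36.3 CPM (SD, n = 5 per group) and a log2 change of 0.14 ± 0.13 (SE, adjusted p = 0.345). Scaling to total counts, which moved the median log2 change of all genes tested from 0.05 to 0.56, gave Plau 0.65 (adjusted p = 0.000732), a value near that median. The other two tests of scaling, by median-of-ratios and upper-quartile factors, left Plau not called. Per kb, Plau exceeded Plat 21.0 ± 8.02-fold in controls and 2.29 ± 0.48-fold with puberulic acid (SD, n = 5 per group). These ratios depend on the length used: with the longest annotated transcript, a choice made after seeing the data, they were 13.8 ± 5.25 and 1.5 ± 0.31 (SD, n = 5 per group).

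Plaur, the urokinase receptor gene, had the smallest adjusted p of the 8 members tested. Its level was 2.40, 3.95, 4.90, 5.36 and 4.16 CPM in the controls and 85.8, 101.5, 96.2, 119.5 and 94.6 CPM with puberulic acid. The treated animals were tightly grouped and all far above the controls. The mean rose 24.0-fold, a log2 change of 4.59 ± 0.19 (SE, adjusted p = 7.44e-09). Plau exceeded Plaur 123.1 ± 47.8-fold per kb in controls and 5.31 ± 0.82-fold with puberulic acid (SD, n = 5 per group), or 95.5 ± 37.1-fold and 4.12 ± 0.63-fold with the longest transcript as the length.

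Plg, the plasminogen gene, was close to the limit of detection. Its counts were 17, 11, 24, 22 and 5 in the controls and 9, 5, 5, 7 and 6 with puberulic acid, which is 0.955 ± 0.510 and 0.247 ± 0.060 CPM (SD, n = 5 per group). Control replicate 5, at 0.325 CPM, lay within the treated range of 0.193 to 0.334 CPM. With no filter on low counts the gene was tested and called lower, with a log2 change of -1.92 ± 0.46 (SE, adjusted p = 0.00294).

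F3 and Thbd, which start and restrain coagulation, both rose, by less than the fibrinogen genes. F3 was at 22.8, 18.6, 19.8, 19.4 and 10.3 CPM in the controls and at 47.0, 45.5, 43.4, 49.1 and 50.4 CPM with puberulic acid. Control replicate 5 was the lowest, and the treated animals differed little among themselves. The log2 change of F3 was 1.37 ± 0.17 (SE, adjusted p = 2.06e-05), a 2.59-fold rise in mean level.

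Thbd was at 12.4, 13.6, 14.6, 16.1 and 16.9 CPM in the controls and at 34.6, 36.2, 49.1, 63.7 and 68.1 CPM with puberulic acid. The treated animals spread more widely than for F3, with replicates 1 and 2 lowest. The mean rose 3.42-fold, a log2 change of 1.78 ± 0.20 (SE, adjusted p = 8.55e-06). The ratio of F3 to Thbd per kb was 1.88 ± 0.65 in controls and 1.48 ± 0.42 with puberulic acid (SD, n = 5 per group), and the groups overlapped. With the longest transcript as the length it was 2.54 ± 0.88 and 1.99 ± 0.57 (SD, n = 5 per group).

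**Figure D4:**
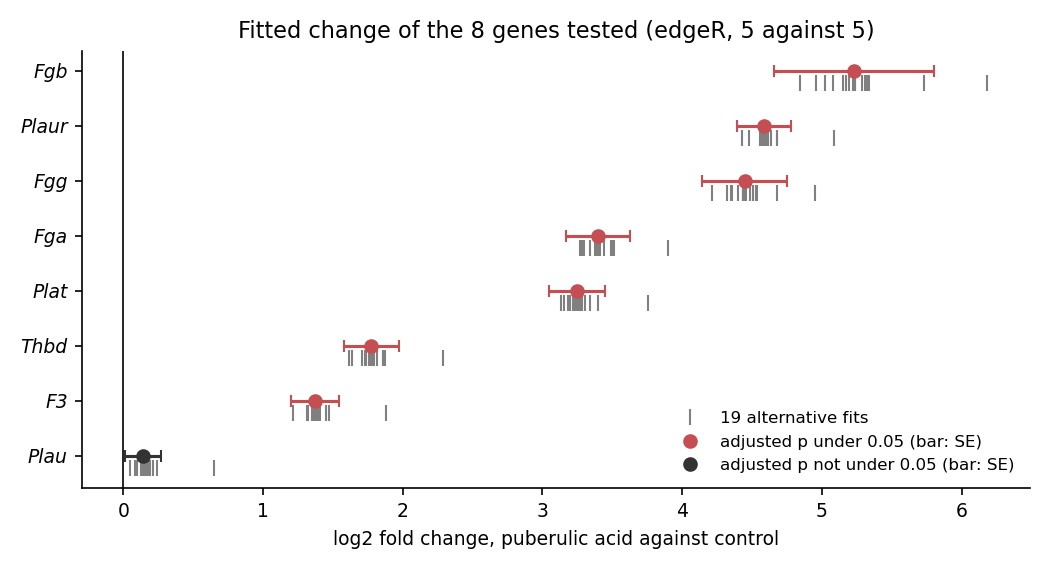
Fitted log2 change of the 8 genes tested, puberulic acid against control, with SE bars, and the values of the 19 alternative fits as grey ticks. Fgb has the largest value (5.23) and the widest error, and Plau (0.14) is the gene not called.

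Per kb of exon, the order of mean levels in controls was Plau, Plat, F3, Fga, Thbd, Fgg, Plaur, Fgb and Plg. With puberulic acid it was Plau, Plat, Fgg, Fga, Plaur, F3, Thbd, Fgb and Plg. Plau stood clear of Plat in both groups, at 180.6 ± 34.3 against 9.36 ± 2.71 CPM per kb in controls and at 199.3 ± 15.3 against 88.8 ± 11.99 with puberulic acid (SD, n = 5). In controls the only other neighbours whose ranges did not overlap were Plaur and Fgb, at 1.59 ± 0.43 and 0.258 ± 0.289 CPM per kb (SD, n = 5). With puberulic acid the ranges of Plat, Fgg, Fga and Plaur each overlapped the next, then a gap separated Plaur (38.0 ± 4.77) from F3 (18.6 ± 1.10), and F3, Thbd and Fgb overlapped again, all above Plg (SD, n = 5). With the longest annotated transcript as the length, Fgb and Plg exchange places in controls, the rest of the order is the same, and the ranges of F3 and Thbd with puberulic acid no longer overlap.

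The genes around the members were grouped in 6 lists by function, chosen with earlier results of these data known. The calls in each list stand beside 34.2% of all genes tested called higher and 31.1% called lower. Circulating procoagulant factors gave no common direction: of 13 genes, 2 were called higher, 4 lower, 3 were not called and 4 were not tested, with a median log2 change of -0.28 over the 9 tested, against 0.05 over all genes. F13b, the carrier subunit of the fibrin-crosslinking factor XIII, fell from 103.9 ± 6.78 CPM in controls to 13.5 ± 6.76 CPM (SD, n = 5 per group), a log2 change of -2.94 (adjusted p = 1.58e-06). F13a1, the catalytic subunit, rose from 0.341 ± 0.143 to 1.30 ± 0.73 CPM (SD, n = 5 per group), with overlapping ranges (adjusted p = 0.00258). Klkb1, plasma prekallikrein, fell with a log2 change of -2.47 (adjusted p = 9.64e-05). F10, factor X, rose from 0.429 ± 0.526 to 1.59 ± 1.00 CPM (SD, n = 5 per group, adjusted p = 0.022). It was not called in 5 of the 10 fits that each left out 1 animal, with log2 fold changes there of 1.46 to 1.77 and adjusted p-values of 0.0509 to 0.0712: those without control replicates 1, 2, 3 and 4 and without puberulic acid replicate 4. Without control replicate 5 its log2 fold change was 3.00, against 1.91 with it. The other two genes called lower, F8 (adjusted p = 0.0435) and Kng1 (adjusted p = 0.0176), fall outside the naming rule and are named after their values were seen. F8 was called in 8 of the 19 alternatives and, of the 10 fits that each left out 1 animal, only in the fit without puberulic acid replicate 1 (log2 change -1.96 against -1.19 with all animals), the adjusted p-values of the other 9 being 0.0514 to 0.0925. Kng1 was not called with total-count scaling (log2 change -0.03, adjusted p = 0.873) and was called in the other 18 alternatives.

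The anticoagulant genes also split. Of 8, 2 were called higher, 1 lower, 3 were not called and 2 were not tested. Proc, encoding protein C, fell from 206.0 ± 18.4 to 37.9 ± 8.03 CPM (SD, n = 5 per group), a log2 change of -2.44 (adjusted p = 5.82e-08). Procr, its endothelial receptor, rose from 1.35 ± 0.44 to 9.36 ± 4.02 CPM (SD, n = 5 per group, adjusted p = 3.35e-05). Pros1, encoding the cofactor protein S, rose 2.41-fold (adjusted p = 1.74e-05). Proc thus fell while Thbd, Procr and Pros1, which encode partners of protein C, rose.

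Of the 8 regulators of plasmin described here, 5 were called higher and 2 lower. Serpinb2, encoding an inhibitor of urokinase, had 0 counts in all controls and 2.25 ± 0.39 CPM in treated animals (SD, n = 5), at least 12.4-fold above a floor of 3 counts per control library. Anxa2, whose protein forms a cell-surface receptor for plasminogen and Plat, rose from 42.7 ± 6.06 to 429.4 ± 84.4 CPM (SD, n = 5 per group, adjusted p = 1.79e-08). Hrg, a plasminogen-binding plasma protein gene, fell from 3.60 ± 1.00 to 0.286 ± 0.217 CPM (SD, n = 5 per group, adjusted p = 3.31e-05). Serpinf2, encoding the plasmin inhibitor alpha-2-antiplasmin, fell from 381.3 ± 47.7 to 57.4 ± 13.8 CPM (SD, n = 5 per group), a log2 change of -2.73 (adjusted p = 7.67e-08).

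Thrombin and related proteases signal through protease-activated receptors, and of these 4 genes F2r and F2rl1 rose, F2rl3 was not called and F2rl2 was not tested. F2r went from 37.0 ± 9.87 to 197.6 ± 65.3 CPM and F2rl1 from 21.0 ± 1.44 to 118.1 ± 7.80 CPM (SD, n = 5 per group), with adjusted p-values of 3.78e-06 and 1.57e-09. Of the 8 genes for partners of the urokinase receptor and of fibrinogen, 7 were called higher and Vtn was not tested. Itgam and Itgb2, which form the leukocyte fibrinogen receptor Mac-1, had log2 fold changes of 3.78 and 2.39 (adjusted p = 5.46e-05 and 0.000584), and without control replicate 4 the value of Itgam was 4.50. Itgb3, an integrin chain that binds fibrinogen, and Icam1, an adhesion molecule that fibrinogen can bridge, had log2 fold changes of 3.57 and 1.69 (adjusted p = 2.06e-06 and 1.40e-06).

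Genes of interleukin-6 family signalling and the acute phase, the class to which fibrinogen belongs, were called higher in 13 of 16 cases, and the other three (Osm, Saa3 and Orm1) were not tested. The median fitted log2 fold change of the 13 was 4.72, and 2.94 with the 3 genes that were at or under the floor in all controls put at their lower bounds. Il6 had 0 counts in all controls and 2.56 ± 1.53 CPM in treated animals (SD, n = 5), at least 14.2-fold above the floor. Saa1 and Saa2, serum amyloid A genes that are near copies whose shared reads may have been divided, reached 11.98 ± 4.31 and 1.15 ± 0.45 CPM (SD, n = 5), at least 66.4-fold and 6.36-fold above the floor. Lif, encoding leukaemia inhibitory factor, rose from 0.280 ± 0.138 to 19.7 ± 4.90 CPM (SD, n = 5 per group, adjusted p = 2.80e-08).

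**Figure D5:**
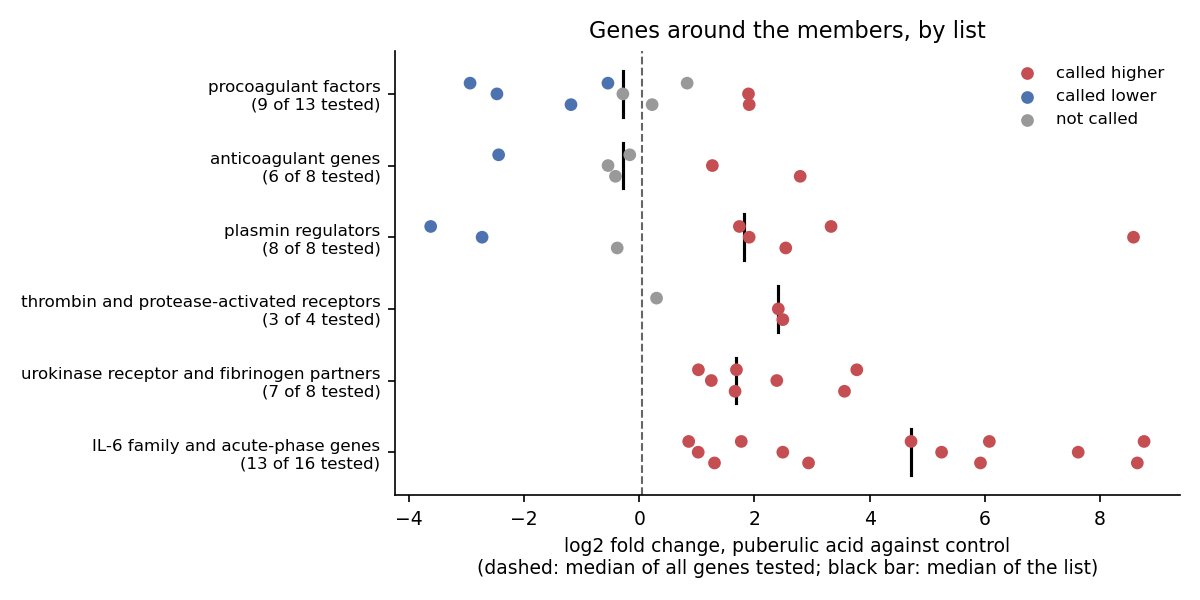
Log2 fold change of each gene tested in the 6 lists (x axis), 1 point per gene, red for called higher, blue for called lower and grey for not called. The IL-6 family and acute-phase list has its fitted median at 4.72 (2.94 with 3 genes at their bounds), and procoagulant factors have theirs at -0.28, against 0.05 for all genes (dashed line).

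Markers of other cell types moved with the treatment, where 34.2% of all genes tested were called higher and 31.1% lower. Of 6 macrophage and leukocyte markers 4 were called higher, and their summed level was 76.8 to 170.1 CPM among controls and 157.7 to 481.6 CPM among treated animals. All 5 fibroblast and mural markers were called higher, with sums of 109.05 to 178.9 and 455.7 to 1666 CPM. All 6 proximal tubule markers were called lower, with sums of 6362 to 9850 and 251.0 to 817.9 CPM, of which 817.9 was puberulic acid replicate 1. The part of these in the rise of Plaur, Plat, F3, Thbd, Itgam and Itgb2 and in the fall of F13b, Proc and Serpinf2 was not tested. Puberulic acid replicate 1 also had the highest F13b and Serpinf2 of the treated animals, at 25.3 and 81.2 CPM. For endothelium, where Thbd and Plat are normally made, 0 of 10 markers were called higher and 2 lower by edgeR, and DESeq2 called 0 higher and 3 lower, as did an unadjusted p under 0.05, with sums of 347.1 to 531.0 and 205.6 to 445.6 CPM. Of 5 podocyte markers 1 was called lower and 0 higher by edgeR, by DESeq2 and at an unadjusted p under 0.05. Of 6 platelet markers 2 were called higher and 1 lower, with sums of 7.34 to 12.98 and 4.49 to 11.8 CPM. Neutrophil markers summed to at most 1.19 CPM, with Ly6g and Elane at 0 in every library. The kidney identity of the samples was clear from Umod, the loop of Henle gene, at 3335 ± 705 CPM in controls and 3476 ± 733 CPM in treated animals (SD, n = 5 per group), and in the list of loop, distal tubule and collecting duct genes that holds it 5 of 6 were called lower, with sums of 4143 to 6108 and 3269 to 6468 CPM.

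Within the groups the members did not vary in parallel. Control replicate 5 was the highest control for Fga, Fgb, Fgg, Plat and Thbd and the lowest for Plau, Plg and F3. The same library had the highest endothelial (531.0 CPM), podocyte (495.4 CPM) and fibroblast and mural (178.9 CPM) marker sums of the controls. Its sums were the lowest of the controls for loop, distal tubule and collecting duct (4143 CPM) and platelet (7.34 CPM) markers. Its hepatocyte sum (27.60 CPM) was also the lowest, by little (27.68 CPM in control replicate 2). The part of these sums in its values was not tested. Puberulic acid replicate 1 was the highest treated animal for Fgb, Fgg and Plg and the lowest for Plaur, Plat and Thbd. Its macrophage and leukocyte sum (157.7 CPM against 301.5 to 481.6 in the other treated animals), its fibroblast and mural sum (455.7 CPM against 645.7 to 1666) and its platelet sum (4.49 CPM against 6.36 to 11.8) were the lowest of its group. Its proximal tubule sum (817.9 CPM against 251.0 to 356.1), its sum of loop, distal tubule and collecting duct markers (6468 CPM against 3269 to 4159) and its hepatocyte sum (40.8 CPM against 27.7 to 32.9) were the highest, and the part of these in its values was not tested. Without puberulic acid replicate 1 the log2 fold changes were 4.84 for Fgb, 4.22 for Fgg, 3.30 for Fga, 4.61 for Plaur, 3.30 for Plat and 1.86 for Thbd.

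Genes with the most similar profile were sought by the Euclidean distance, over the 10 animals, of log2(CPM + 1) from the mean of the controls. Fgb and Fgg were each other's nearest gene, at a distance of 0.931, and Ankrd34b came next for both, at 1.47 for Fgb and 1.10 for Fgg. The nearest to Fga were Asns (0.919), Hmga1 (1.02) and Zfand2a (1.05), and neither other fibrinogen gene was among its nearest 3. Adding 1 CPM shrinks the changes of genes with low control levels. Fgb and Ankrd34b had control means of 0.982 and 0.484 CPM. Their fitted log2 changes were 5.23 and 5.62, against 4.45 for Fgg. How far the pairing of Fgb with Fgg, and the absence of Fga from it, depends on this was not tested. For Plaur the nearest was Gprc5a (0.802), for Plat Golm1 (0.513), for F3 Timd2 (0.410) and for Thbd Efemp2 (0.405). These distances are smaller for genes with small changes, so they rank genes for 1 member and not between members.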

How the data were processed

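Estimated counts per gene were deposited by the authors in 1 table of 55822 Ensembl mouse genes. The submitters' processing notes list fastp 0.22.0, Salmon 1.10.3, DESeq2 and the build GRCm39, with no role or order, and the labels' protocols give poly(A) selection and a directional kit. The 5 control and 5 puberulic acid columns were used, and 10 sample columns whose names do not show the supplement lot were not used in any step. Libraries held 18409877 to 24705587 estimated counts in total. A floor of 3 counts equals 0.158 to 0.195 CPM in control and 0.0964 to 0.128 CPM in puberulic acid libraries and covers counting error only.

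Counts were rounded to whole numbers, filtered with filterByExpr, scaled with TMM factors and tested in edgeR 4.0.16 (R 4.3.3, limma 3.58.1) by glmQLFit and glmQLFTest without the robust option, with Benjamini-Hochberg adjustment over 16266 genes. The SE is the absolute log2 fold change over the square root of F. Alternatives were other scalings, other filters, DESeq2 1.42.0, a robust fit, a table without the mitochondrial and the 10 most abundant genes, a replicate block and leaving out each animal. The labels do not say that samples are separate animals beyond their numbering, so p-values measure the spread between these samples. The members, the 6 pathway and 9 marker lists and the motifs were chosen with earlier results of these data known. The text names all members and, per pathway list, the 4 called genes of largest log2 fold change; 1 gene of the lists is not reported here and was left out of their counts. Symbols were found for 51344 genes in GENCODE M21, and exon lengths come from the same release, which is of GRCm38, not of the listed build, so no gene coordinates are given. Promoter sequences and their coordinates are RefSeq's for GRCm38.p6, matched by symbol for 5 of 9 members.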

Additional observations from a re-analysis of the deposited data

Results flagged for a closer look

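In each group of 5, the CPM of each member, of each pathway gene named by the rule and of F8 and Kng1 was searched for an animal whose gap to its neighbour was over 0.71 of that group's range. Of 61 groups with a range above 0, 9 held such an animal, where chance (1 in 20) gives about 3.05. Of the 9, 2 are in F8, named after its values were seen, and 4 concern control replicate 5. That animal had the highest Fgb of the controls, at 2.922 CPM (45 counts) against 0.264 to 0.764 in the others. It also had the highest F10, at 1.364 CPM (21 counts) against 0.105 to 0.255, and the highest Pros1, at 26.49 CPM against 17.7 to 19.7, and the lowest Serpinf2, at 296.9 CPM against 393.5 to 409.9. Control replicate 4 had the highest Itgam of the controls, at 5.047 CPM against 0.856 to 1.46. Puberulic acid replicate 1 had the highest F13b of its group, at 25.28 CPM against 7.90 to 11.9, the highest Serpinf2, at 81.17 CPM against 46.3 to 55.3, and the highest F8, at 9.39 CPM against 1.19 to 3.18. Control replicate 1 had the highest F8 of the controls, at 11.64 CPM against 6.56 to 7.89.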

How the results depend on the processing

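The 7 members called higher were called higher in all 19 alternatives run. With total-count scaling 8 were, Plau being the addition, and that scaling called 78.4% of all calls higher against 52.4%. The number of members called lower went from 0 to 1 with no filter, and ran from 0 to 1 over the fits that each left out 1 animal. The member was Plg each time, which the filter otherwise removed, and its log2 fold change was -2.15 without control replicate 5 and -1.89 and -1.88 without puberulic acid replicates 2 and 3. The number of genes called was 10622, from 9960 to 11844 over the alternatives that kept all animals and from 10104 to 11108 over those that left out 1. Same-numbered samples share only a number: the correlation of their deviations was -0.036 on average, from -0.172 to 0.039, and no control was closest to its own number. With the replicate block 10325 genes were called, and no call of a member changed. The pathway genes named, other than F10, F8 and Kng1, kept their direction and their call in every alternative that tested them. Low counts limit the precision of Plg in both groups and of Fgb, Il6, Serpinb2 and Saa2 in controls. The same holds for Saa1, Lif, F10, F13a1 and Itgb3 in controls and for Hrg and Klkb1 with puberulic acid.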

Other observations

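Of the genes that flank the fibrinogen cluster, Lrat was called lower and Plrg1 higher. Lrat, the retinol-esterifying enzyme gene next to Fgg, fell from 2.61 ± 0.73 to 0.353 ± 0.229 CPM (SD, n = 5 per group), a log2 change of -2.88 ± 0.42 (SE, adjusted p = 7.83e-05). Plrg1, a splicing factor gene next to Fgb, rose from 26.9 ± 1.56 to 37.8 ± 1.71 CPM (SD, n = 5 per group), a log2 change of 0.49 ± 0.07 (SE, adjusted p = 0.000104). These 2 genes were chosen by position, and no test compared them with the fibrinogen genes.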
